A study of Rattus norvegicus with 2 samples.

Results

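Of the 32623 genes counted in rat cochlear cells, 7 were chosen as genes of cartilage-like matrix together with the transcription factor Sox9: Cnmd, Cytl1, Matn4, Sox9, Acan, Hapln1 and Comp. All 7 gene symbols were found in both count matrices, as 1 row each. The choice rested on the levels of these genes in the same cells, so the levels below are a description of a chosen set and none was tested. Single cells had been captured from dissociated cochlear duct tissue of Sprague-Dawley rats at postnatal day 1 (P1) and postnatal day 7 (P7), untreated at both ages. Each age was 1 library of pooled tissue, so the age and the library cannot be told apart, and no spread between animals can be given. The P1 library held 14068 cell barcodes and the P7 library 14501, of which 12779 and 12581 passed the study's limits on genes, UMIs (counted RNA molecules) and mitochondrial share. The cells kept had a median of 6565 UMIs at P1 and 6878 at P7, and 60 barcode sequences occurred in both libraries.

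The labels call the samples greater epithelial ridge cells, an epithelial cell group. Cells of the 1 epithelial-like cluster (Epcam, Oc90 and Cldn9 among its leading genes) made up 2.30% of the P1 cells and 1.70% of the P7 cells. Most cells were mesenchymal-like, 9242 at P1 and 7674 at P7, in 11 of 23 clusters. A cluster was called mesenchymal-like where at least 3 of the mesenchyme markers were found in at least 10% of its cells. In addition, no glial, neuronal, vascular, macrophage, epithelial or melanocyte list was to stand out. The markers were Pou3f4, Tbx18, Twist1, Prrx1, Col1a1, Col1a2 and Col3a1. Most other clusters had at least 3 of them too, with 4 in the epithelial-like cluster, so the call rested largely on the other lists. Col3a1 and Col1a1 were found more often outside the mesenchymal-like cells, at P1 in 70.4% against 64.9% and 40.4% against 12.6%. They were so at P7 too, whereas the remaining markers were found more often in the mesenchymal-like cells. The clusters were already known when this rule was made. The 7 genes and all marker genes were left out of the genes used for clustering.

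Cartilage matrix is a mesh of collagen fibrils and aggrecan, a large proteoglycan that binds hyaluronan and holds water. Link protein (Hapln1) locks aggrecan to hyaluronan, and matrilins such as Matn4 and the oligomeric protein Comp bridge the fibrils. SOX9 is the transcription factor that chondrocytes require and that switches on many of these genes. Chondromodulin (Cnmd) is a cartilage glycoprotein that restrains blood vessel growth, and Cytl1 is a small secreted protein of cartilage. In the cochlea, fibrocytes of the spiral ligament and spiral limbus also build a matrix rich in cartilage-type collagens. The tectorial membrane is itself a matrix that contains such collagens, and SOX9 marks supporting cells as well.

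Over all mesenchymal-like cells, 4 of the 7 genes (Cnmd, Cytl1, Matn4 and Sox9) were well above 10 CPM (its UMIs scaled to a library total of 1000000) at both ages, and all 4 were higher at P7. Acan, Hapln1 and Comp stayed under 10 CPM at both ages. Cnmd, Cytl1 and Sox9 were at least 2-fold higher at P7, beside 10.4% of all 7959 genes that reached 10 CPM. No member was 2-fold lower among those at 10 CPM, where 5.54% of all genes were. The median gene was itself 0.15 higher on the log2 scale at P7, and the ratios of the members are to be read against that value. Over all cells kept, the same 3 genes passed 2-fold, beside 9.74% of 8222 genes (6.57% were 2-fold lower). All intervals are exact at 95%, by Poisson for a level, by the conditional binomial for a ratio and by Clopper-Pearson for a share, and they hold counting error alone.

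The increase took 2 forms. Sox9 and Matn4 were higher at P7 across most mesenchymal-like clusters. The P7 excess of Cnmd and Cytl1 lay mainly in 1 cluster of 868 P7 cells, C11, led by Gcg, Car3, Fbxo2 and Otos. Cnmd and Cytl1 were themselves among the leading genes of C11. This cluster held 8.89% of the P7 library's UMIs. It held 60.4% of the Cnmd UMIs, 61.5% of the Cytl1 UMIs, 24.9% of the Matn4 UMIs and 19.2% of the Sox9 UMIs of that library. Only 4 P1 cells fell in C11, and a cluster that comes from 1 library may reflect that library as well as a cell state.

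**Figure D1:**
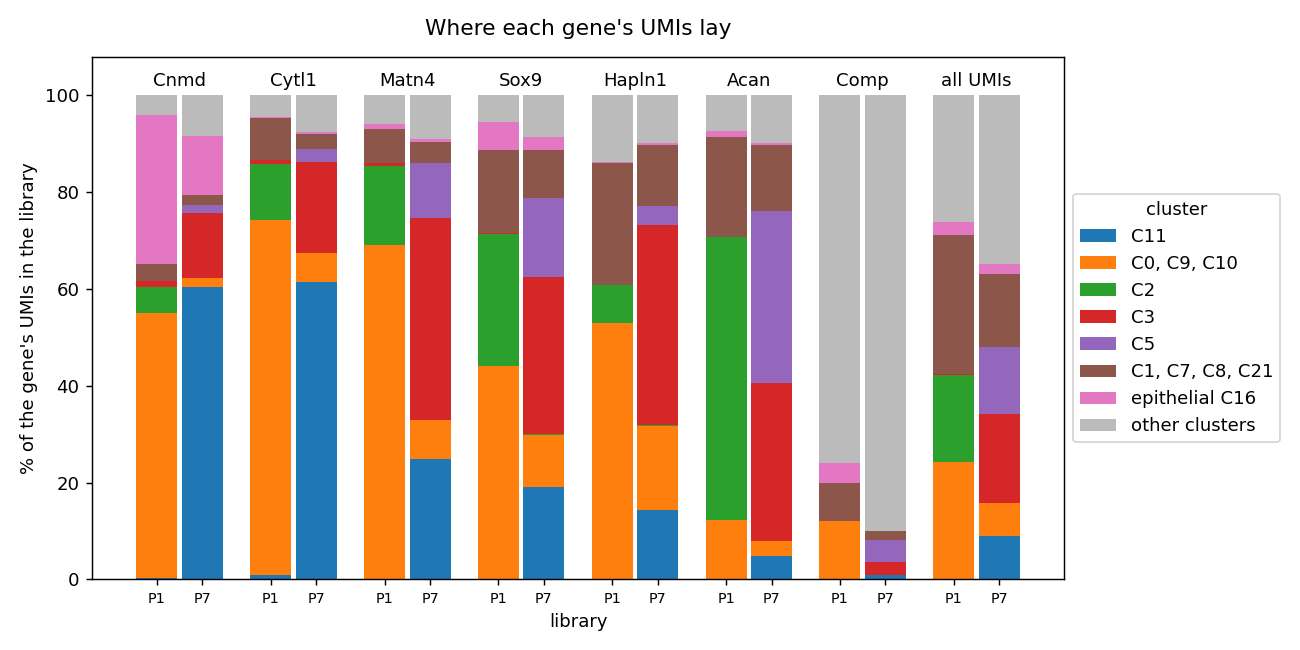
Share of each gene's UMIs (vertical axis, % of the gene's UMIs in a library) that lay in clusters of the merged clustering, with P1 and P7 bars for each of the 7 genes and, at the right, for all UMIs. At P7, C11 holds 60.4% of Cnmd and 61.5% of Cytl1 but 8.89% of all UMIs, and most Comp UMIs lie outside the clusters named in the key.

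Cnmd was at 122 CPM (119.6 to 124.8) in mesenchymal-like cells at P1 and at 373 CPM (368 to 378) at P7, a log2 ratio of 1.61 (1.57 to 1.65). Without C11 the P7 level was 104 CPM and the ratio turned to -0.23 (-0.28 to -0.18). Pooled over the mesenchymal-like cells left, the Cnmd level was thus not higher at P7, although it was in some clusters of a second clustering, given below. C11 was left out after its Cnmd level was seen, and almost no P1 cells went with it. A lower ratio was therefore bound to follow. In C11 itself Cnmd stood at 2017 CPM (1986 to 2047) and was found in 86.9% of the cells.

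At P1 the highest mesenchymal-like level of Cnmd was 338 CPM in C0 (2699 cells, Adamts20 and Edil3 among its leading genes), followed by 203 CPM in C9 (920 cells, led by Gria2, Isyna1 and Coch). The C2 cells, led by Plagl1, Col1a1 and Sfrp1, had 40.7 CPM, and the C1 cells, led by Cav1 and Scg3, 10.6 CPM. At P7 the C3 cells, led by Dlx5 and Sfrp4, had 215 CPM. The remaining large P7 clusters were low, with 68.1 CPM in C10, 36.1 CPM in C5 and 33.2 CPM in C8. Neighbouring P7 clusters C5 and C8 had overlapping intervals (32.9 to 39.6 and 29.5 to 37.2 CPM).

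Cnmd had a second site of high level in the epithelial-like cluster C16. It was at 1509 CPM (1462 to 1556) there in 294 P1 cells and at 1874 CPM (1812 to 1939) in 214 P7 cells. These cells carried 30.8% of all Cnmd UMIs at P1 and 12.2% at P7, with 2.71% and 1.93% of the UMIs of their libraries. The other matrix members were far lower in C16 than Cnmd was relative to their own maxima. Cytl1 was at 3.76 CPM and 18.4 CPM, beside 7.25 and 33.0 CPM in the macrophage-like cells at the same ages.

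Few cells supplied most of the Cnmd. The 5% of cells with the most Cnmd held 77.3% of its UMIs at P1 and 75.9% at P7, with 5.48% and 7.69% of all UMIs. The corresponding shares were 61.2% and 66.0% for Cytl1, 38.6% and 30.4% for Matn4, and 34.6% and 27.7% for Sox9. Single cells reached 155 Cnmd UMIs at P1 and 120 at P7. Over all cells kept, the epithelial-like ones included, 374 P1 cells and 811 P7 cells held at least 10 Cnmd UMIs.

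Cytl1 was at 65.4 CPM (63.5 to 67.3) in mesenchymal-like cells at P1 and at 176 CPM (172.6 to 179.4) at P7, a log2 ratio of 1.43 (1.38 to 1.48). Without C11 the P7 level was 68.2 CPM and the ratio 0.07 (0.01 to 0.14), below the shift of the median gene. At P1 its order over clusters followed that of Cnmd, with 172 CPM in C0, 86.6 CPM in C9, 31.9 CPM in C2 and 7.81 CPM in C1. At P7 it was at 834 CPM (814 to 854) in C11, at 124 CPM in C3, at 81.8 CPM in C10 and at 23.3 CPM in C5. In the 66 P7 cells of C9 it was at 301 CPM (258 to 347), where Cnmd was at 130 CPM. Cytl1 had no UMI in the 123 P7 cells of C21, where a count of 0 allows a level of up to 4.22 CPM.

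Cytl1 was the only one of the 4 abundant genes with an entry in the RefSeq promoter table (build GRCr8), so its sequence is shown, together with that of Hapln1, whose level over all cells was lower at P7. Of the 7 genes, 4 (Cytl1, Acan, Hapln1 and Comp) had an entry. The 250 bases before the annotated start are given 5′ to 3′ on the strand of the gene, with capitals for any match to the SOX-type motifs ACAAAG or ACAATG on either strand. Cytl1 lies at chr14:77283646-77283895, minus strand, and Hapln1 at chr2:22366717-22366966, plus strand.
Cytl1: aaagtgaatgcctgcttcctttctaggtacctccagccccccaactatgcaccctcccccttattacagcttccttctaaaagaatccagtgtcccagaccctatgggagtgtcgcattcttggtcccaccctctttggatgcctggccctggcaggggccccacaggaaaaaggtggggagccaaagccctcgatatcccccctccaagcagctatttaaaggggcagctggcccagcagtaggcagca
Hapln1: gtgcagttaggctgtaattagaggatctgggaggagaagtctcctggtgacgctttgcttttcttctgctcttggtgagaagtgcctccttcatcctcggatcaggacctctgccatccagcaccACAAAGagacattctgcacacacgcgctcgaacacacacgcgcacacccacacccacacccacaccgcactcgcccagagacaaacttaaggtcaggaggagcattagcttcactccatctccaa
The Hapln1 window held 1 match, which began 125 bases before the start, and those of Cytl1, Acan and Comp held none. Of 33469 promoter windows of this length, 25.3% held at least 1 match. A match is only a run of letters, and these windows are in another build than the rn6 genome to which the reads were aligned.

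Matn4 was the most widely found member, in 55.0% of mesenchymal-like cells at P1 and in 76.0% at P7. Its level was 466 CPM (461 to 471) at P1 and 855 CPM (847 to 862) at P7, a log2 ratio of 0.88 (0.86 to 0.90). Without C11 the ratio was 0.63 (0.61 to 0.65), so Matn4 was higher outside C11 as well. At P1 it was highest in C9 (1358 CPM, 1331 to 1386) and C0 (868 CPM), with 323 CPM in C2, 214 CPM in the dividing C7 cells and 39.4 CPM in C1.

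At P7, Matn4 was high in both C11 (1673 CPM, 1645 to 1701) and C3 (1359 CPM, 1341 to 1376). The C3 cells held 41.8% of its P7 UMIs with 18.4% of the library's UMIs. C10 had 723 CPM, C5 490 CPM and C8 84.5 CPM. The Matn4 level in C5 was thus well above that of C8, 2 clusters in which Cnmd did not differ beyond counting error.

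Sox9 was at 90.2 CPM (87.9 to 92.4) in mesenchymal-like cells at P1 and at 253 CPM (249 to 257) at P7, a log2 ratio of 1.49 (1.45 to 1.53). Without C11 the ratio was 1.36 (1.31 to 1.40). Among the 4 abundant genes Sox9 was the one least tied to single clusters. At P1 it ran from 30.5 CPM in C1 and 78.6 CPM in the dividing cells to 110 CPM in C2 and 149 CPM in C0. At P7 it ran from 84.9 CPM in C8 and 183 CPM in the dividing cells to 214 CPM in C5, 280 CPM in C10, 319 CPM in C3 and 389 CPM in C11. The epithelial-like cells had 152 CPM at P1, close to the 149 CPM of C0 at the top of that range. At P7 they had 248 CPM, within the range of the mesenchymal-like clusters.

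Most merged clusters came almost wholly from 1 library, so the ages were also compared within clusters of a second clustering in which the libraries had been integrated (J0 to J23). This clustering had 12 mesenchymal-like clusters with 9279 P1 and 7724 P7 cells, each cluster with at least 50 cells of each age. They were grouped by the marker list that was highest in them: Otor-Crym (J1, J10, J12, J19), Penk-Col8a1 (J3, J5), Gpc3-Dcn (J2), Ccn3-Irx3 (J4), Aldh1a2-Scara3 (J6, J11, J21) and dividing (J7). The list name is weak for J19, where the Otor-Crym list was 0.03 above the other mesenchymal-like cells on the log2 scale. J21 consisted largely of cells called doublets (84.3%) with glial leading genes and is not described further. Doublet calls were also frequent in J19 (18.5%) and J11 (16.5%), which are described below.

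**Figure D2:**
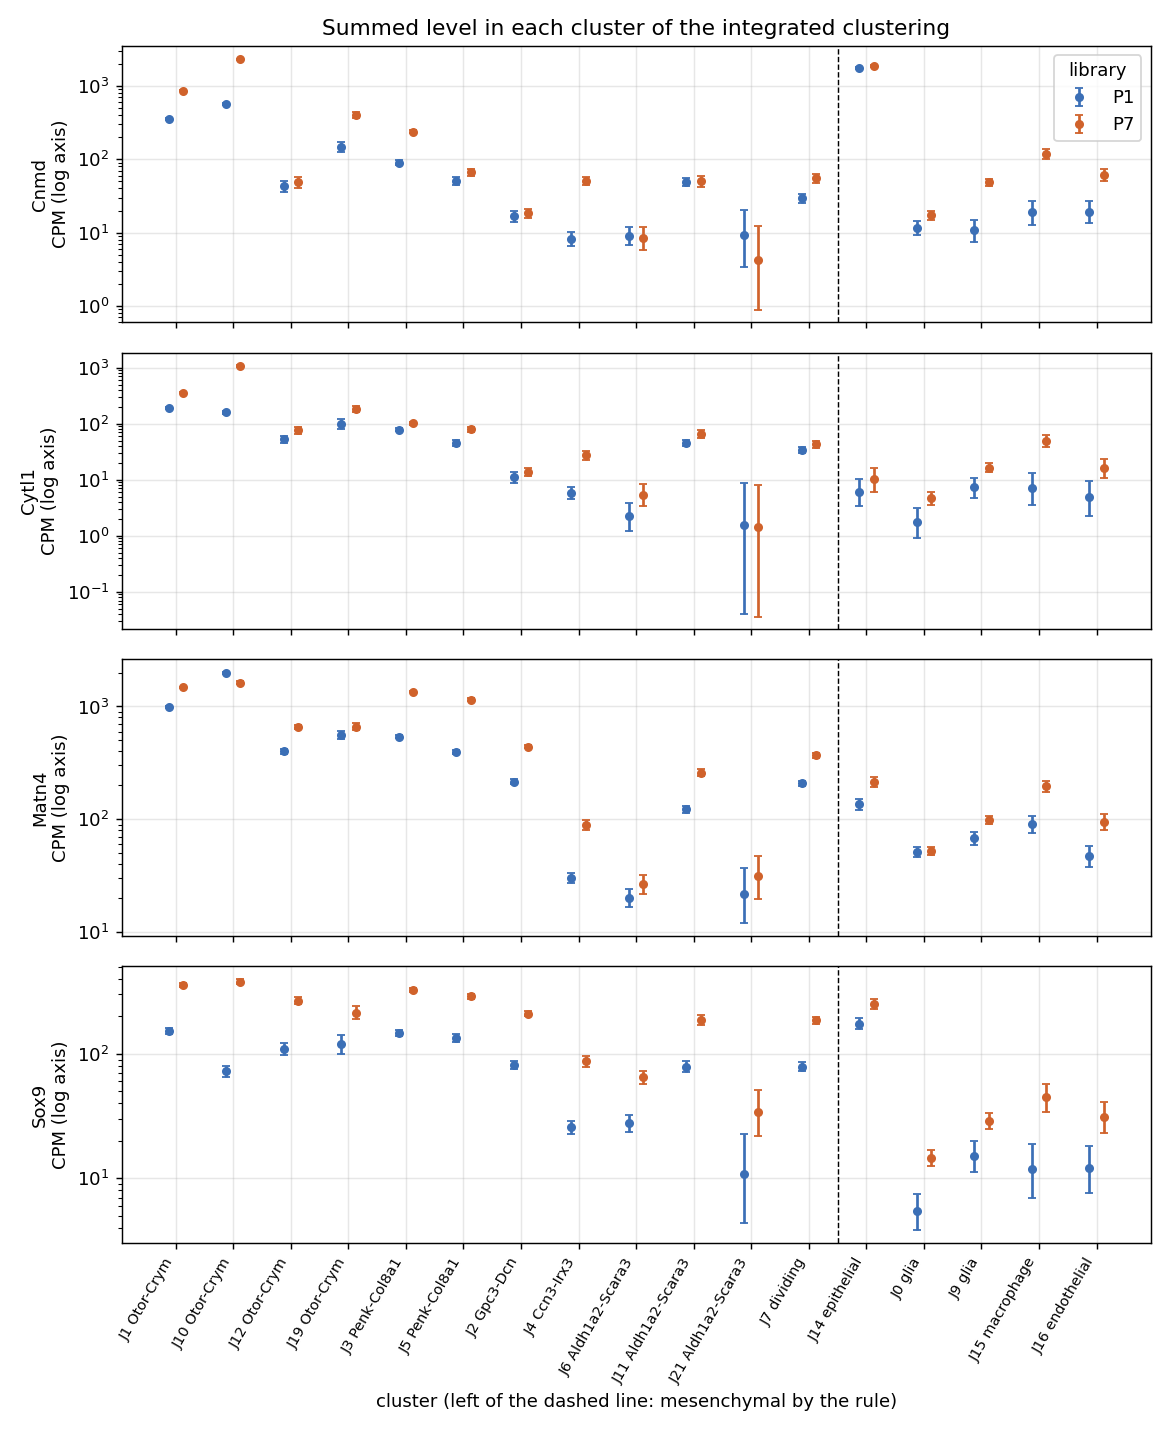
Level of Cnmd, Cytl1, Matn4 and Sox9 (CPM, log axes, bars are exact 95% Poisson intervals) in the clusters of the integrated clustering, with P1 in blue and P7 in orange. Sox9 is higher at P7 in every cluster shown (in J21 with overlapping intervals), Cnmd is high in J10, J1 and the epithelial-like J14, and of the clusters shown only J10 has less Matn4 at P7.

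Sox9 was higher at P7 in each of the 12 mesenchymal-like integrated clusters, with log2 ratios from 0.85 in J19 to 2.40 in J10. In J1 it went from 153 to 358 CPM, in J3 from 148 to 324 CPM, in J2 from 81.4 to 211 CPM and in J4 from 25.8 to 87.2 CPM. The median gene in these clusters was 0.11 to 0.21 higher at P7. Grouped by list, the Sox9 ratio was over 1 in all 6 states, from 1.10 (0.94 to 1.26) in Aldh1a2-Scara3 to 1.76 (1.54 to 1.98) in Ccn3-Irx3. The share of all genes that was at least 2-fold higher was 12.1% in Otor-Crym, 10.4% in Penk-Col8a1, 10.6% in Gpc3-Dcn, 12% in Ccn3-Irx3, 10.6% in Aldh1a2-Scara3 and 9.37% in the dividing cells.

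Matn4 rose in most of these clusters and fell in 1. It went from 538 to 1356 CPM in J3, from 396 to 1151 CPM in J5 and from 215 to 441 CPM in J2, with log2 ratios of 1.33, 1.54 and 1.04. In J1 it went from 991 to 1475 CPM, a ratio of 0.57 (0.54 to 0.61). In J10 it was lower at P7, at 1628 against 1979 CPM, a ratio of -0.28 (-0.33 to -0.24). Without the C11 cells, 65 P7 cells of J10 were left, with 1124 CPM of Matn4 against 1988 CPM at P1, a ratio of -0.82 (-0.93 to -0.71).

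Cnmd and Cytl1 had their highest mesenchymal-like levels of this clustering at P7 in J10. Cnmd went from 569 to 2324 CPM there, a log2 ratio of 2.03 (1.97 to 2.09), and Cytl1 from 160 to 1071 CPM, a ratio of 2.74 (2.63 to 2.85). Of the 371 P7 cells in J10, 310 belonged to C11, and 521 of the 1486 P7 cells in J1 did. Without the C11 cells, J10 kept 65 P7 cells with 177 CPM of Cnmd against 564 CPM at P1, a ratio of -1.68 (-1.96 to -1.40). Cytl1 stayed higher at P7 there, at 214 against 154 CPM, a ratio of 0.48 (0.20 to 0.74). J1 without them had 274 CPM of Cnmd against 356 CPM at P1, a ratio of -0.38 (-0.46 to -0.29), and 183 CPM of Cytl1 against 193 CPM. Taking them out also takes out most of the P7 counterparts of the J10 cells at P1, so these values do not say what became of the P1 cells.

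Outside C11, Cnmd was higher at P7 in a few clusters. The J3 level, with 7 C11 cells, went from 90.3 CPM at P1 to 239 CPM at P7, a ratio of 1.41 (1.28 to 1.53), and to 226 CPM without those 7 cells. In J19, with 18.5% of cells called doublets, it went from 147 CPM to 280 CPM without its C11 cells. In J5 it went from 50.2 to 66.2 CPM and in the dividing J7 cells from 29.2 to 54.6 CPM. Cytl1 went from 78.8 to 102 CPM in J3, a ratio of 0.37 (0.22 to 0.52). Without C11 cells its ratio was 0.81 (0.58 to 1.05) in J5, 0.55 (0.25 to 0.84) in J11 and 0.51 (0.15 to 0.87) in J19. The J6 ratio of Cytl1 was 1.27 (0.21 to 2.39), at only 2.25 and 5.43 CPM. Its interval without C11 cells included 0 in J1, J2, J7 and J12. In J2, J6, J11 and J12 the interval of the Cnmd ratio included 0, with levels between 8.53 and 50.6 CPM.

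In J4, Cnmd went from 8.21 to 50.2 CPM, a ratio of 2.61 (2.26 to 2.97), and Cytl1 from 5.88 to 27.3 CPM, a ratio of 2.21 (1.78 to 2.66). The macrophage-like J15 cells, 14.5% of which were called doublets, had 19.1 and 119 CPM of Cnmd, above the levels of J4, J5 and J7 at P7. The part of free RNA in these ratios was not tested.

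Weighted to the P1 mix of the 12 clusters, the P7 levels gave log2 ratios of 1.54 for Cnmd, 1.38 for Cytl1, 0.65 for Matn4 and 1.34 for Sox9, against 1.60, 1.42, 0.87 and 1.49 without weights. The weighted ratio was lower than the unweighted ratio for each of these genes, and most so for Matn4 (0.65 against 0.87). The C11 cells count in the clusters that contain them, so their share within a cluster was not held constant. The part of the cell mix within clusters in these ratios was not tested.

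**Figure D3:**
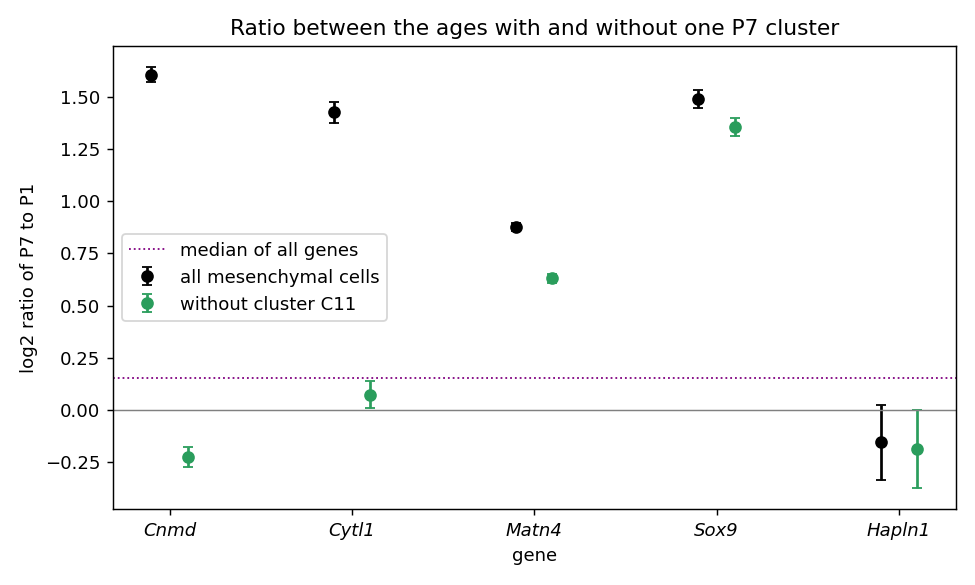
Log2 ratio of P7 to P1 (vertical axis) in mesenchymal-like cells of the merged clustering for Cnmd, Cytl1, Matn4, Sox9 and Hapln1, with all cells in black and without C11 in green (bars are exact 95% intervals, the dotted line is the median of all genes at 0.15). Cnmd falls from 1.61 to -0.23 and Cytl1 from 1.43 to 0.07 without C11, whereas Sox9 goes from 1.49 to 1.36.

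For detection, 2000 UMIs were drawn from each cell. The 252 P1 and 711 P7 cells with fewer were not used. In mesenchymal-like cells Matn4 was found in 37.8% of P1 and 59.1% of P7 cells, Sox9 in 16.8% and 36.6%, Cnmd in 11.2% and 16.4%, and Cytl1 in 10.1% and 16.4%. Without thinning the shares were 55.0% and 76.0% for Matn4, 41.0% and 70.9% for Sox9, 19.1% and 26.8% for Cnmd, and 21.6% and 29.6% for Cytl1. Sox9 was the one abundant member whose thinned share more than doubled. For Cnmd the share differed less between the ages than the level did.

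Macrophage-like cells, which should lack these genes, were read for free RNA, although 14.2% of them were called doublets. A typical macrophage-like cell had 7219 UMIs in the P1 library and 7049 in the P7 library (medians), where a mesenchymal-like one had 6700 and 7284. After thinning, Matn4 was found in 5.65% (2.74 to 10.1) of them at P1 and 16.7% (11.3 to 23.3) at P7, Sox9 in 1.69% and 6.17%, Cnmd in 3.95% and 3.70%, and Cytl1 in 0.56% and 3.70%. The endothelial-like cells had 4.03% and 10.8% for Matn4 and 1.34% and 5.10% for Sox9. The share in the macrophage-like cells was thus higher at P7 for Matn4 and, with overlapping intervals, for Sox9, which is the direction seen in mesenchymal-like cells, and it lay below the mesenchymal-like share at each age. The part of free RNA in the ratios was not tested.

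The thinned share of Matn4 lay within or below the macrophage-like interval in the P1 clusters C1 (4.16%) and C6 (7.22%). That of Cnmd lay below the macrophage-like share in C1 at P1 (1.60%) and in C5 (3.14%) and C8 (2.23%) at P7. The glia-like cells had 7.72% and 15.0% for Matn4 and 1.02% and 6.42% for Sox9, close to the macrophage-like shares. The 437 glia-like P7 cells of C17 had 16.6% for Cnmd and 50.5% for Matn4, and 85.4% of them were called doublets by Scrublet.

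**Figure D4:**
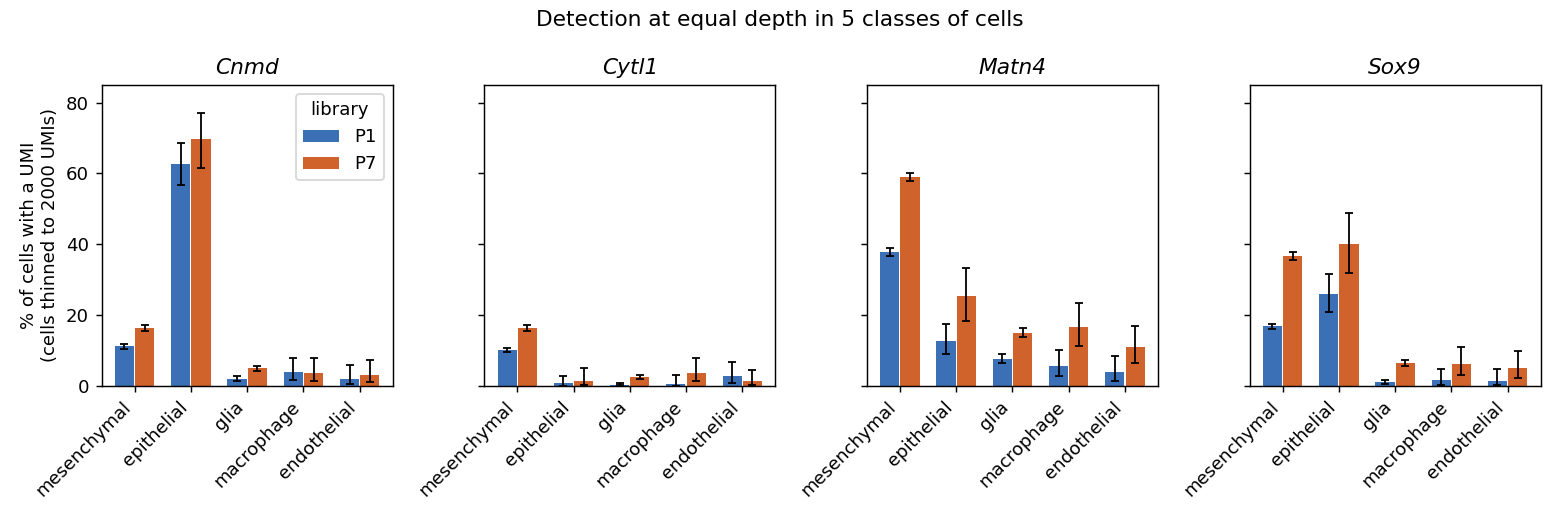
Share of cells with at least 1 UMI after thinning to 2000 UMIs (vertical axis, %, bars are exact 95% Clopper-Pearson intervals) for 4 genes in 5 classes of cells at P1 and P7. Mesenchymal-like and, for Cnmd and Sox9, epithelial-like cells stand above the glia-like, macrophage-like and endothelial-like cells at both ages.

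The pairing of the genes within single cells was looked at inside clusters, after thinning. In C0 at P1, Cytl1 was found in 43.0% (39.1 to 46.9) of the 642 cells with Cnmd and in 17.0% (15.4 to 18.7) of the cells without it. Matn4 was found in 87.2% (84.4 to 89.7) of the C0 cells with Cnmd and in 54.5% (52.3 to 56.7) of those without. Sox9 showed no such link in C0, with 24.9% in cells with Cnmd and 24.9% in cells without.

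In C11 at P7, Cytl1 was found in 71.6% (67.9 to 75.1) of the 634 cells with Cnmd and in 51.6% (44.7 to 58.5) of those without, whereas Sox9 was found in 51.3% and 50.2%. In C9 at P1, Matn4 was found in 93.8% of the 161 cells with Cnmd and in 61.3% of the others, while Sox9 was found in 11.2% (6.76 to 17.1) and 18.7% (15.9 to 21.6). The cells with Cnmd therefore more often had Cytl1 and Matn4 in C0, Cytl1 in C11 and Matn4 in C9 than the cells without it. They did not have Sox9 more often in these 3 clusters. Other pairs and clusters are not described, so no general pairing can be read from these.

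Across 31 points (14 clusters at P1 and 17 at P7 with at least 50 cells), the log2 levels of Cytl1 and Matn4 ran together most closely among the members (Pearson r = 0.88). The r of Sox9 was 0.77 with Matn4, 0.73 with Cytl1 and 0.69 with Cnmd. Comp had a negative r with each of the other 6 members, from -0.13 with Acan to -0.33 with Matn4. These points share their libraries and depth, so the values are a description.

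Among 11460 genes, the 3 whose pattern was most like that of Matn4 were Col2a1 (r = 0.95), Rbpjl (0.94) and Col9a1 (0.93), 2 of which are chains of cartilage-type collagens. Those most like Cnmd were Cpxm2 (0.91), Meltf (0.87) and Fbxo2 (0.86), and those most like Cytl1 were Lrrn1, Matn4 and Crym (0.88, 0.88 and 0.87). Those most like Sox9 were Efna4, Rhod and Gjb2 (0.91, 0.91 and 0.90). For Hapln1 they were Chrdl1, Edil3 and Crym (0.88, 0.87 and 0.83), for Acan Crispld2, Sstr4 and LOC100911545 (0.93, 0.92 and 0.90), and for Comp Fa2h, Peli2 and Gjc3 (0.87, 0.87 and 0.85), over points where Acan and Comp never passed 7.96 and 5.26 CPM.

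Aggrecan itself was barely counted. Acan had 82 UMIs in all P1 cells and 286 in all P7 cells, or 0.84 and 3.07 CPM, and no cell held more than 4. At P1, 58.5% of its UMIs lay in C2 (48 UMIs). At P7, 35.7% lay in C5 and 32.5% in C3, and its highest level over merged clusters of at least 50 cells was 7.96 CPM in C5. In the integrated clustering J19 had 12.3 CPM at P7 (6.91 to 20.4, from 15 UMIs). C11, the cluster richest in Cnmd and Cytl1, had 14 Acan UMIs, or 1.69 CPM. The log2 ratio of Acan in mesenchymal-like cells was 2.02 (1.65 to 2.41), at levels of 1.08 and 4.37 CPM.

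Hapln1 had 692 UMIs at P1 and 502 at P7, or 7.06 and 5.39 CPM over all cells, and was the one member with a lower level at P7. In mesenchymal-like cells the difference did not pass counting error, at 8.55 and 7.67 CPM with a log2 ratio of -0.16 (-0.34 to 0.02). Its UMIs lay mainly in C0 (36.6%), C9 (16.2%) and C1 (14.3%) at P1 and in C3 (41.4%), C11 (14.3%) and C10 (13.3%) at P7. The ratio was 0.56 (0.13 to 1.01) in J3 and -0.43 (-0.75 to -0.11) in J1, where it was -0.12 (-0.48 to 0.24) without the C11 cells. Among the cells with Acan, 6 of the P1 cells and 16 of the P7 cells also held a Hapln1 UMI.

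Comp had 25 UMIs at P1 and 111 at P7, and few of them were mesenchymal-like (5 and 11 UMIs). At P7 the glia-like clusters C4, with 49 Comp UMIs, and C15, with 22, held most of them. C15 had Cldn19 and Mag, genes of myelinating glia, among its leading genes and had 5.26 Comp CPM. No cell at either age held both Comp and Acan.

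Related genes of cartilage were read from lists of other genes in the mesenchymal-like cells. Of the 6 cartilage collagen genes at 10 CPM or more, Col11a2 (from 92.8 to 398 CPM), Col9a2 (660 to 1811 CPM) and Col9a1 (2412 to 5146 CPM) were at least 2-fold higher at P7 and none was 2-fold lower. The median log2 ratio of the 6 was 0.99, beside 0.15 for all genes. Of all genes at 10 CPM in these cells, 10.4% were 2-fold higher and 5.54% were 2-fold lower. The lists below are to be read beside the same shares. Col2a1, the main fibril collagen of cartilage, went from 438 to 813 CPM, and Col9a3 from 208 to 189 CPM.

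Of 12 chondrocyte transcription factors, 7 reached 10 CPM, of which Sox8 (8.09 to 36.6 CPM) and Runx2 (4.98 to 15.5 CPM) were 2-fold higher. Their median log2 ratio was -0.04, and Sox5, a partner of SOX9 at cartilage genes, went from 19.1 to 13.8 CPM. Of 29 other cartilage matrix genes, 12 reached 10 CPM, and Dcn (684 to 2359 CPM), Thbs2 (26.3 to 59.2 CPM) and Epyc (11.2 to 23.7 CPM) were 2-fold higher. Ccn2 (197 to 104 CPM) and Mgp, an inhibitor of mineralisation (962 to 578 CPM), were lower by less than 2-fold. Of the 10 hyaluronan and sulfation genes at 10 CPM, Chst12 (4.46 to 17.0 CPM) and Has2, a hyaluronan synthase (5.51 to 14.6 CPM), were 2-fold higher. None of the 8 matrix cleavage genes at 10 CPM differed 2-fold. Of 8 relatives of chondromodulin and growth signals, Chrd (5.04 to 12.6 CPM), Bmp4 (9.44 to 21.2 CPM), Itm2a (56.0 to 120 CPM) and Ptch1 (39.9 to 81.9 CPM) were 2-fold higher. Sox8, Runx2, Chst12, Has2, Chrd and Bmp4 reached 10 CPM at P7 only, so they entered the comparison through the age at which they were high. Genes under 10 CPM at both ages were not compared. Among them Adamts5 (4.22 to 1.07 CPM) was lower at P7 and Thbs4 (1.09 to 7.55 CPM) higher.

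Of the 10 markers listed for the cartilage of the otic capsule, 6 stayed under 10 CPM in the mesenchymal-like cells at both ages. Matn1 had 2 UMIs at P1 and 1 at P7, and Col10a1, the collagen of hypertrophic chondrocytes, 4 and 1. Matn3 had 8 and 38 UMIs, Ucma 80 and 262, Snorc 235 and 260, and Chad 288 and 476. Ucma had more UMIs outside the mesenchymal-like cells (282 and 1605) and was a leading gene of the epithelial-like C16. The other 4 (Col2a1, Col9a1, Col9a2 and Col11a1) were far above 10 CPM, from 351 CPM for Col11a1 at P1 to 5146 CPM for Col9a1 at P7. The summed level of the 10 ran from 401 CPM in C21 at P1 to 13506 CPM in C3 at P7. It was 11949 CPM in C11 and 6527 CPM in C0.

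Bone and tendon markers were present in part. Of 5 bone markers, 3 reached 10 CPM, with Dmp1 from 8.17 to 99.3 CPM, Alpl from 7.16 to 19.0 CPM and Ibsp from 19.7 to 22.2 CPM. Dmp1 and Alpl reached 10 CPM at P7 only. Bglap stayed near 1 CPM and Sp7 below it. Alpl was higher outside the mesenchymal-like cells, at 16.9 CPM at P1 and 30.1 CPM at P7. Of 3 tendon markers only Scx reached 10 CPM, from 32.4 to 116 CPM. Tnmd was lower at P7 (5.40 to 3.43 CPM), and Mkx stayed under 1 CPM. Haemoglobin levels were also higher in mesenchymal-like cells at P7 (Hbb 46.5 and 220 CPM, Hba-a2 243 and 548 CPM). The macrophage list summed to between 3.91 and 6.87 CPM over the mesenchymal-like clusters at P1 and to between 14.9 and 31.1 CPM at P7, and their part in the member ratios was not tested.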

How the data were processed

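Droplet single-cell RNA-seq (10x Genomics 3' v3 chemistry) had been run on 2 libraries of rat cochlear duct tissue, 1 for each age. The deposited values are whole UMI counts per gene and barcode; the file headers give Cell Ranger 3.1.0, and the study aligned reads to rn6 and analysed them with Seurat 3.1.1. No counts were rescaled, and no other column of per-sample values was used (0 columns). The study's limits on cells (more than 500 but fewer than 5000 genes, 500 UMIs or more, mitochondrial share under 25%) left 90.8% of the P1 and 86.8% of the P7 barcodes.

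Clusters were made anew with Seurat 5.3.0 in R 4.3.3: log-normalised counts, 1877 of 2000 variable genes (123 marker and member genes left out), 10 principal components and resolution 0.8, once on the merged libraries (23 clusters, C0 to C22) and once after integration (24 clusters, J0 to J23). A non-mesenchymal class was given where the mean log2 ratio of its list to all other cells was at least 1. Scrublet (scanpy 1.11.5) marked doublets, which stayed in. Levels (CPM) are counts summed over cells and scaled to a total of 1000000 UMIs, computed with Python 3.11.15, numpy 2.4.6 and scipy 1.17.1, and ratios are of P7 to P1. The ratios and intervals were tried on simulated Poisson counts, which hold no spread between cells, animals or libraries. That trial therefore covers counting error alone. With 1 library per age no test was made and no p-value is given. Genes were compared 2-fold where either age reached 10 CPM. The precision is set by the counts alone (98005495 UMIs in kept P1 and 93080129 in kept P7 cells).

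The members, lists and rules were chosen with earlier results of these data known. The genes named are the 7 members in every state, the 3 genes most like each member (log2 of CPM + 5 over clusters with at least 50 cells, genes of at least 10 CPM in 1 of them), and from each list up to 5 genes past 2-fold. Leading genes of clusters, markers named singly from the cell type lists and the further list genes named (such as Col2a1, Col9a3, Sox5, Ccn2 and Mgp) were picked after their values were seen. Alternatives covered resolution, components, integration, doublets, the mitochondrial limit, scaling, the filter on low genes and thinning. Promoter sequences came from RefSeq (GRCr8).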

Additional observations from a re-analysis of the deposited data

Results flagged for a closer look

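Matn4 was lower at P7 than at P1 in the integrated cluster J10 (log2 ratio -0.28, or -0.82 without the C11 cells) while it was higher in other mesenchymal-like clusters, such as J3 (1.33). Hapln1 was lower at P7 in J1 (-0.43) and higher in J3 (0.56), and without the C11 cells the J1 ratio was -0.12 (-0.48 to 0.24). Both were picked out because the intervals of the same gene lay on opposite sides of 0 in clusters of the same libraries. The difference between clusters was not tested, since each age is 1 library.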

How the results depend on the processing

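Between the ages, 3 of the 4 members at 10 CPM were at least 2-fold apart in mesenchymal-like cells, and 3 of 4 in all cells kept. Of all genes, 10.4% and 9.74% were 2-fold higher there, and 5.54% and 6.57% were 2-fold lower. In mesenchymal-like cells it was 1 of 4 members without the cluster led by Car3 and Gcg (C11), where the Cnmd log2 ratio turned to -0.23. With no filter on low genes it was 5 of 7, which adds Acan and Comp, the latter on 5 and 11 UMIs. Over all cells it was 1 of 4 when each cell counted equally. No share of all genes is at hand for these changed settings. Of the member values within states, 6 of 13 passed 2-fold in the merged clustering, 14 of 25 after integration and 11 of 20 at resolution 1.2, where more states had both ages. Of all genes, 14.7% to 26.2%, 14.8% to 17.5% and 14.5% to 28.2% passed 2-fold in those states. The Sox9 log2 ratio in mesenchymal-like cells ranged from 1.36 to 1.50 over 13 alternatives and that of Matn4 from 0.63 to 0.96. Leaving out C11, leaving out C10 (haemoglobin among its leading genes) and weighting to the P1 mix were added after seeing the data. The cluster group with the highest level was the same for 6 or 7 of 8 gene and age pairs over 4 other clusterings, and that of Matn4 at P7 differed under each. With 1 library per age no replicate could be left out. No paired analysis was possible because each age has 1 library. Depth limits Acan, Hapln1 and Comp, whose levels rest on 25 to 692 UMIs a library.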
